A study of Rattus norvegicus with 12 samples.

Results

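Lungs of growth restricted rat pups were compared with lungs of control pups at postnatal day 10, over all genes on the array. The comparison rests on 4 of the 12 arrays of the study, chosen by the day and condition in their titles. They are replicates 1 and 2 of the IUGR group (intrauterine growth restriction) and replicates 1 and 2 of the control group. All were whole lungs of Sprague-Dawley rats. In IUGR pups, growth before birth had been restricted through a low protein diet, and the controls are labelled only as controls. Each array held RNA pooled from 2 or 3 pups, out of 14 IUGR and 15 control pups in the whole study, so that an array averages several lungs and the spread between single pups cannot be seen. The labels do not give litters, the sex of the pups or which pups entered which pool. The p-values below measure only the spread between pools.

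Rat alveoli form mainly after birth. New septa grow out of the walls of the terminal airspaces, with elastin laid down at their tips by myofibroblasts, and capillaries grow along them. Thin type 1 cells come to cover most of the gas exchange surface and type 2 cells make surfactant, while macrophages and dendritic cells settle in the tissue. Day 10 falls in the period in which septa are being formed.

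The values were intensity on one-colour arrays, analysed on the log2 scale, with 26208 features measured on each array. One feature stood for each of 9621 named genes, and the other features without a symbol entered the tests but are not named. Median intensity ran from 412 to 415 on the 4 arrays at day 10. The lung label held in every pool. Surfactant protein C (Sftpc) had log2 intensities of 15.36 and 15.37 in IUGR pools, against 15.40 and 15.31 in control pools. Surfactant protein A1 (Sftpa1) had 14.10 and 13.98 in IUGR pools, against 13.98 and 13.88 in control pools. Over all features the pools of IUGR lungs correlated with each other at 0.993 and the control pools at 0.997. The SD of the difference between both pools was 0.21 on the log2 scale in IUGR lungs and 0.15 in control lungs.

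IUGR replicate 2 stood apart in genes of other tissues. Of the named genes, 58 lay at least 1 log2 unit above the control mean in IUGR replicate 2, of which 19 belonged to the lists of heart muscle, brown fat and skeletal muscle genes. In IUGR replicate 1 the counts were 11 and 6. Values of both IUGR pools are therefore given for many genes, and the other genes are given by their mean difference alone. For most lists, counts called are also given for IUGR replicate 1 alone against both control pools, with fewer arrays in the fit.

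No feature passed an adjusted p of 0.05 at day 10 in limma's test with Benjamini-Hochberg adjustment over 26208 features. The smallest adjusted p was 0.303. At an unadjusted p under 0.05, 2095 features (7.99%) differed, of which 1018 (3.88%) were higher in IUGR lungs and 1077 (4.11%) were lower. The named genes alone leaned to the lower side, with 309 higher (3.21%) and 485 lower (5.04%). Counts in each list below are to be read against these shares. Differences were small: 36 features (0.137%) differed by at least 1 log2 unit. For 5208 features (19.9%) both IUGR pools lay above both control pools, and for 6198 (23.6%) both lay below. Every gene described below thus failed the adjusted test. Its difference is given with its SE and limma's adjusted p, and "called" means an unadjusted p under 0.05, which none of these genes kept after adjustment. All 1077 features called lower and 1017 of the 1018 called higher had no overlap between the pools. For a called gene, lack of overlap is therefore no further evidence. In the fit with IUGR replicate 1 alone, 2.98% of features were called higher and 3.24% lower.

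Genes of brown fat and of heart muscle gave wide differences, most of them towards higher values in IUGR lungs. Ucp1, the uncoupling protein by which brown fat makes heat, had log2 intensities of 11.30 and 13.29 in IUGR pools, against 7.71 and 9.15 in control pools. Its difference was 3.87 ± 1.23 (SE, adjusted p = 0.508), a 14.6-fold higher mean. Both IUGR pools were above both control pools, and the control pools themselves differed by more than 1 unit. The fat cell lipid carrier Fabp4 had 11.96 and 13.93 in IUGR pools, against 9.97 and 10.63 in control pools (difference 2.64 ± 0.76, adjusted p = 0.469). The fat cell hormone adiponectin (Adipoq) had 9.36 and 11.44 in IUGR pools, against 7.57 and 8.28 in control pools (2.48 ± 1.20, adjusted p = 0.664). In each of these genes IUGR replicate 2 was the highest pool and IUGR replicate 1 the second highest.

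In heart muscle genes the distance between both IUGR pools was as wide. The atrial hormone precursor Nppa had 8.37 and 10.74 in IUGR pools, against 7.24 and 7.17 in control pools (2.35 ± 1.42, adjusted p = 0.742). The cardiac myosin heavy chain Myh6 had 10.35 and 12.25 in IUGR pools, against 9.40 and 9.19 in control pools (2.01 ± 0.76, adjusted p = 0.571). Its relative Myh7 had 9.09 and 10.26 in IUGR pools, against 8.11 and 8.22 in control pools (1.51 ± 0.31, adjusted p = 0.371). Cardiac actin Actc1 was high in 1 pool alone, with 11.38 and 12.60 in IUGR pools, against 11.34 and 11.43 in control pools (0.61 ± 0.51, adjusted p = 0.835).

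**Figure D1:**
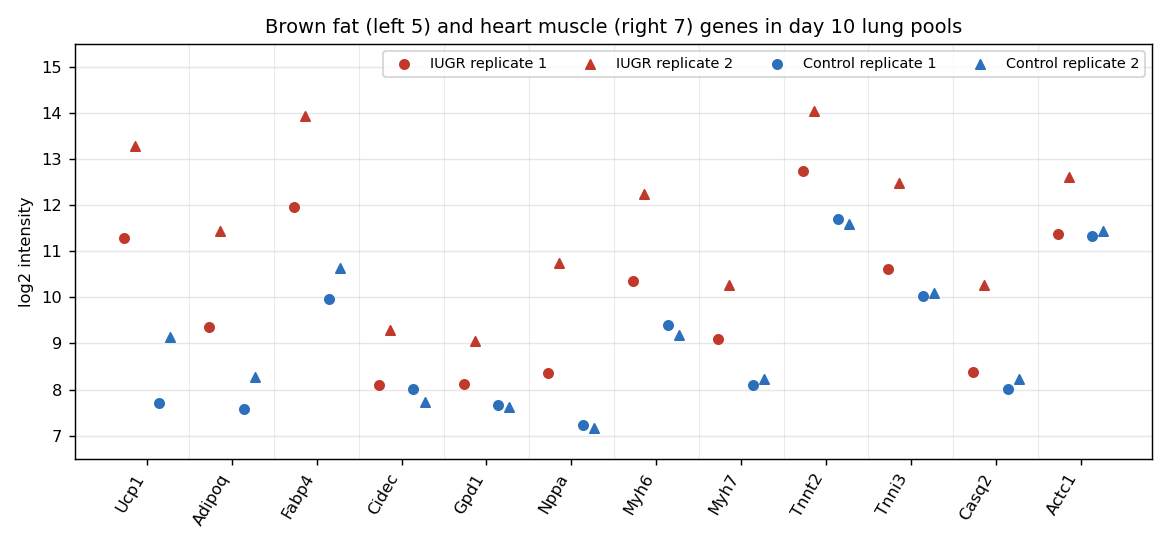
Log2 intensity (vertical axis) of 5 brown fat and 7 heart muscle genes in the day 10 pools, with IUGR replicates in red left of control replicates in blue. The genes were picked after their values were seen. IUGR replicate 2 is the highest pool in all 12, and for Actc1 IUGR replicate 1 lies between the control pools.

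Of 20 measured brown fat and adipocyte genes, 8 were called higher and 0 lower, with a median difference of 0.41, against -0.02 over all named genes. Of 20 measured heart muscle genes, 4 were called higher and 0 lower, with a median of 0.49. The counts called in these 2 lists rest on the fit with both IUGR pools. In both lists IUGR replicate 2 lay farther above control than IUGR replicate 1, as the medians below show. Among all named genes, 3.21% were called higher and 5.04% lower. The summed intensity of the brown fat list was 17847 and 44818 in IUGR pools, against 10950 and 11573 in control pools. That of the heart list was 20328 and 49854 in IUGR pools, against 14751 and 14514 in control pools. The brown fat median stood 0.24 above control in IUGR replicate 1, with 15 of 20 genes positive, and 0.61 above in IUGR replicate 2. The heart median stood 0.12 above control in IUGR replicate 1, with 16 of 20 genes positive, and 0.77 above in IUGR replicate 2. The lists hold genes that did not follow: leptin (Lep), of white fat, had 7.60 and 7.64 in IUGR pools, against 7.67 and 7.62 in control pools. Dio2, of the same list, had 7.77 and 7.99 in IUGR pools, against 8.10 and 8.10 in control pools (-0.22 ± 0.12, adjusted p = 0.695). Ppargc1a differed by 0.04 ± 0.11 and its groups overlapped. Of the 20 brown fat and adipocyte genes, 18 had a positive difference and 2 a negative one. The heart transcription factor Nkx2-5 had 7.40 and 7.39 in IUGR pools, against 7.50 and 7.42 in control pools. The markers Myl7, Cidea and Plin1 had no named feature. More such cells in a pool and more RNA per cell cannot be told apart in pooled tissue, here or in any group below.

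Genes of fatty acid oxidation and of the respiratory chain were also higher in IUGR replicate 2. The lists can share members: Acsl1, called higher (0.83 ± 0.30, adjusted p = 0.571), counts in the fatty acid oxidation and brown fat lists. Of 25 fatty acid oxidation genes, 5 were called higher and 0 lower, against 3.21% and 5.04% of all named genes. Their median stood 0.04 above control in IUGR replicate 1 and 0.42 above in IUGR replicate 2. Acadl, the long chain acyl-CoA dehydrogenase, had 12.84 and 13.45 in IUGR pools, against 12.63 and 12.69 in control pools (0.49 ± 0.19, adjusted p = 0.577). Etfdh, which passes electrons from these dehydrogenases to ubiquinone, had 12.24 and 12.52 in IUGR pools, against 12.01 and 11.92 in control pools (0.42 ± 0.15, adjusted p = 0.552). When IUGR replicate 2 was left out, 0 of the 25 were called higher and 1 was called lower.

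Of 40 genes of the respiratory chain and ATP synthase, 4 were called higher and 1 lower, against 3.21% and 5.04% of all named genes. Their medians were -0.04 in IUGR replicate 1 and 0.22 in IUGR replicate 2. Cox8b, the cytochrome oxidase subunit of heart and brown fat, had 9.43 and 11.34 in IUGR pools, against 8.80 and 8.95 in control pools (1.51 ± 0.60, adjusted p = 0.595). Cox4i2, a subunit form known from lung, went the other way, with 11.02 and 11.07 in IUGR pools, against 11.32 and 11.33 in control pools (-0.28 ± 0.09, adjusted p = 0.482). With IUGR replicate 1 alone, 0 were called higher and 3 lower, so the direction of this list depended on 1 pool. Of 15 nerve and Schwann cell genes 0 were called by limma without adjustment, with medians of 0.05 in IUGR replicate 1 and 0.53 in IUGR replicate 2. The part of heart, fat and nerve RNA in these metabolic genes was not tested.

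**Figure D2:**
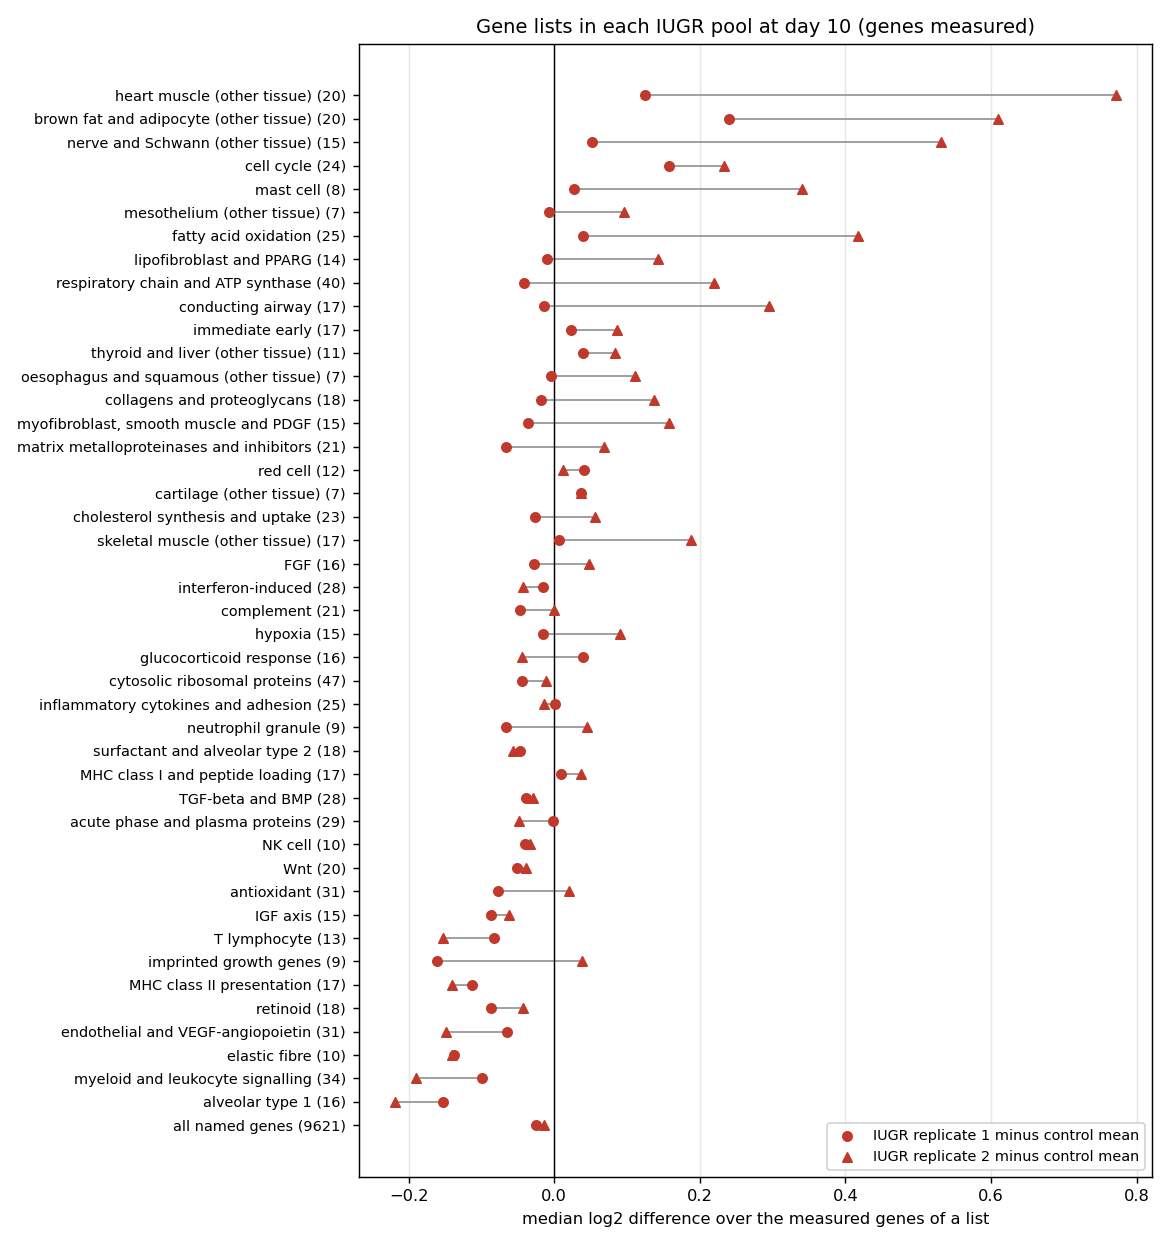
Median log2 difference from the mean of both control pools (horizontal axis), over the measured genes of each list, for IUGR replicate 1 (circles) and IUGR replicate 2 (triangles). Numbers of genes are in brackets. Lists with few measured genes, such as B lymphocyte (4) and thymus (5), are left out, and the bottom row holds all named genes. The pools lie far apart for heart muscle (0.12 and 0.77) and close together for elastic fibre genes (-0.14 in both).

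Genes of MHC class II antigen presentation were among those with the smallest p, and 6 members were called lower. MHC class II molecules are pairs of an alpha and a beta chain that display peptides to CD4 T cells, and in lung they mark dendritic cells, macrophages, B cells and, in many species, type 2 cells. In the rat the complex is named RT1, with classical chains encoded by RT1-Ba and RT1-Bb (the DQ type) and RT1-Da and RT1-Db1 (the DR type). Their genes lie together on chromosome 20, and transcription depends on the RFX complex, NF-Y at a CCAAT box and the coactivator Ciita. The promoters of the 4 genes, from 250 bases before to 50 bases after the gene start, are shown because these genes were lower together. They are RefSeq sequences of build GRCr8: RT1-Da at chr20:4515165-4515464 (plus strand), RT1-Ba at chr20:4576807-4577106 (plus strand), RT1-Bb at chr20:4604069-4604368 (minus strand) and RT1-Db1 at chr20:4560113-4560412 (minus strand). Each is written 5′ to 3′ on the strand of its gene, and capitals mark the CCAAT box, read as CCAAT or, on the other strand, as ATTGG.
RT1-Da: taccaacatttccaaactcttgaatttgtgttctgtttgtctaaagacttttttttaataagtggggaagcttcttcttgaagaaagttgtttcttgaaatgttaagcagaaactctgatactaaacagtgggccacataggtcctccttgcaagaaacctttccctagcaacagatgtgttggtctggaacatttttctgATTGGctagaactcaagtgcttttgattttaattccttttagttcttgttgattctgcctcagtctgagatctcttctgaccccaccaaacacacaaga
RT1-Ba: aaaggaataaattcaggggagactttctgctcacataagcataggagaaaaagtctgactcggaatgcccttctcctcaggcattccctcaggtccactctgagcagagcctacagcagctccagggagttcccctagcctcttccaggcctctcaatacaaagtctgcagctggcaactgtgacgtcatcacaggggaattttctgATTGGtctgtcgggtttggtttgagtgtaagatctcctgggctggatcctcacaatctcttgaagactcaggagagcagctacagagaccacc
RT1-Bb: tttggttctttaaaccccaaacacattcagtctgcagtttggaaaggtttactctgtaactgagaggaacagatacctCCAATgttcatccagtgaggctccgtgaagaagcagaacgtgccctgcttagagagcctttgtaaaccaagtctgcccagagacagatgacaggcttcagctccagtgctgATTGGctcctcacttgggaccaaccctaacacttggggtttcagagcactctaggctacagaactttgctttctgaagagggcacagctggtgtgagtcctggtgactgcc
RT1-Db1: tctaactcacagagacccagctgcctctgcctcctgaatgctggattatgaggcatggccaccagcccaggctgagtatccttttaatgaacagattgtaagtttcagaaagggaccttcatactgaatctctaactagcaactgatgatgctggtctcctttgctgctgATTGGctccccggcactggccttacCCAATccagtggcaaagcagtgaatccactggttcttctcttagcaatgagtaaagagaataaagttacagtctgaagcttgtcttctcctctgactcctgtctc
RT1-Da and RT1-Ba hold the motif 1 time each, RT1-Bb and RT1-Db1 2 times each. It was present in 11 of 15 promoters matched for this list (73.3%), against 37.5% of all 33469 promoters in the table. A match says only that these letters are there.

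RT1-Da had log2 intensities of 12.47 and 12.40 in IUGR pools, against 13.07 and 13.04 in control pools. Its difference was -0.62 ± 0.09 (adjusted p = 0.303), an intensity 0.651 times that of controls. RT1-Bb had 8.95 and 8.95 in IUGR pools, against 9.85 and 9.74 in control pools (-0.85 ± 0.12, adjusted p = 0.303). In both genes the gap between the groups was several times the distance between pools of a group. RT1-Ba had 12.30 and 12.17 in IUGR pools, against 12.81 and 12.71 in control pools (-0.53 ± 0.08, adjusted p = 0.303). RT1-Db1 had 9.83 and 10.09 in IUGR pools, against 10.76 and 10.73 in control pools (-0.78 ± 0.15, adjusted p = 0.345). All 4 classical chains were thus lower in both IUGR pools. RT1 genes have near-identical copies and the probe sequences were not used here, so signal from a relative is possible.

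The invariant chain Cd74, which guides class II molecules to the endosome, was lower with them. It had 12.77 and 12.72 in IUGR pools, against 13.16 and 13.18 in control pools (-0.43 ± 0.09, adjusted p = 0.371). Rfxank, a subunit of the RFX complex, had 9.63 and 9.75 in IUGR pools, against 10.34 and 10.15 in control pools (-0.56 ± 0.10, adjusted p = 0.323). Other members of the machinery were not called. Ciita had 8.62 and 8.27 in IUGR pools, against 8.54 and 8.62 in control pools (-0.13 ± 0.14, adjusted p = 0.882). Rfxap, another RFX subunit, had 9.45 and 9.56 in IUGR pools, against 9.55 and 9.54 in control pools (-0.04 ± 0.10, adjusted p = 0.957). The peptide exchange chains RT1-DMa and RT1-DMb differed by -0.02 ± 0.14 and -0.09 ± 0.09, and the costimulators Cd80 and Cd86 by 0.13 ± 0.11 and 0.09 ± 0.10. Ciita, Rfxap, RT1-DMa and Cd80 overlapped between the groups.

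Of 17 measured genes of the list, 6 were called lower and 0 higher, against 5.04% and 3.21% of all named genes. In 9 both IUGR pools were lower without overlap, against 25.9% of all named genes. The median was -0.09, since 11 members were not called. With IUGR replicate 1 alone the same count, 6 lower and 0 higher, was obtained. The summed intensity of the list was 28873 and 28548 in IUGR pools, against 37986 and 37437 in control pools.

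**Figure D3:**
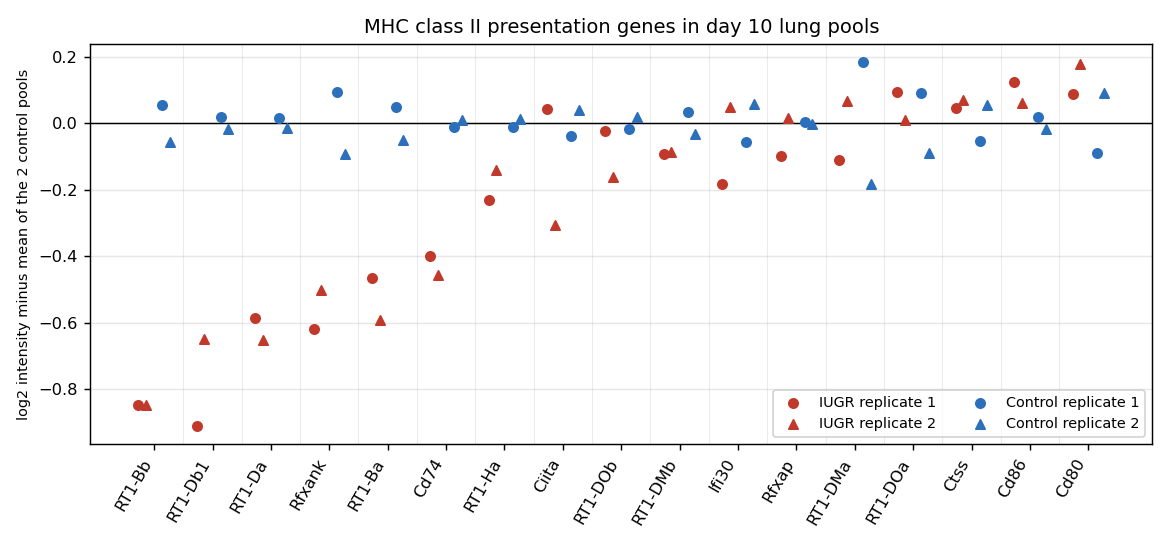
Log2 intensity of each of 17 MHC class II presentation genes minus the mean of both control pools (vertical axis), with IUGR replicates in red left of control replicates in blue, sorted by their mean difference. Both IUGR pools lie below both control pools in the 6 genes with the most negative differences. These are the 6 called lower, and every feature called lower on the array lacks overlap.

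The share of class I genes called lower was above the 5.04% of all named genes, but rested on 2 genes. Of 17 measured class I and peptide loading genes, 2 were called lower and 0 higher, with a median of -0.03, and with IUGR replicate 1 alone 3 were called lower. RT1-A2, a classical class I chain, had 11.00 and 11.25 in IUGR pools, against 11.54 and 11.50 in control pools (-0.40 ± 0.10, adjusted p = 0.441), and the peptide transporter Tap1 differed by -0.22 ± 0.10 (adjusted p = 0.625).

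Among 34 genes of myeloid and leukocyte signalling, 11 were called lower in IUGR lungs, where 5.04% of all named genes were. Fgr, a kinase of the Src family found in phagocytes, had 8.19 and 8.14 in IUGR pools, against 8.64 and 8.79 in control pools (-0.55 ± 0.08, adjusted p = 0.303). Both pools of each group lay closer to each other than to the other group. Laptm5, a lysosomal protein of blood cells, had 11.07 and 11.20 in IUGR pools, against 11.69 and 11.73 in control pools (-0.58 ± 0.09, adjusted p = 0.303). Cxcr4, the receptor for the homing chemokine Cxcl12, had 10.72 and 10.74 in IUGR pools, against 11.21 and 11.25 in control pools (-0.50 ± 0.08, adjusted p = 0.303).

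Of the 34 genes measured, 26 had a negative difference and 0 were called higher, with a median of -0.14. In 16 both IUGR pools lay below both control pools and in 4 above, against 25.9% and 17.8% of all named genes. In the fit without IUGR replicate 2, 10 were called lower and 0 higher. The members with the smallest p among those higher in IUGR lungs missed the call. They were led by Ccr2, the chemokine receptor of inflammatory monocytes, with 12.65 and 12.70 in IUGR pools, against 12.34 and 12.36 in control pools (0.32 ± 0.14, adjusted p = 0.637). Cd68, a lysosomal marker of macrophages, had 11.48 and 11.37 in IUGR pools, against 11.57 and 11.54 in control pools (-0.13 ± 0.09, adjusted p = 0.787).

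Lymphocyte, granule and cytokine genes were called in small numbers, where 3.21% of all named genes were called higher and 5.04% lower. Of 13 T lymphocyte genes 2 were called lower and 0 higher, and 0 with IUGR replicate 1 alone by limma without adjustment. Of 4 B lymphocyte, 10 NK cell and 9 neutrophil granule genes 0 were called, by limma without adjustment. The adhesion receptor Cd2 had 8.40 and 7.96 in IUGR pools, against 8.55 and 8.75 in control pools (-0.47 ± 0.16, adjusted p = 0.535). Of 25 inflammatory cytokine and adhesion genes 3 were called higher and 2 lower, and with IUGR replicate 1 alone 1 higher and 2 lower. The cytokine Il1a had 11.49 and 10.64 in IUGR pools, against 10.19 and 10.43 in control pools (0.75 ± 0.25, adjusted p = 0.519), with IUGR replicate 1 the highest pool. Its antagonist Il1rn had 10.32 and 10.51 in IUGR pools, against 10.87 and 10.75 in control pools (-0.39 ± 0.14, adjusted p = 0.548).

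Most measured cell cycle genes had higher values in IUGR pools. Of 50 listed genes 24 had a named feature, and Mki67, Top2a, Bub1 and Mcm2 were among those without one. The list runs from nucleotide supply and replication in S phase to kinetochores and cyclins in mitosis. Many late cell cycle promoters carry CCAAT boxes and the CHR element, at which repressor and activator complexes alternate over the cycle. Promoters of 3 called genes are shown as examples of a group whose members were mostly higher together, with capitals marking the CCAAT box (CCAAT or ATTGG) and the CHR letters (TTTGAA or TTCAAA). They are RefSeq sequences of build GRCr8, 250 bases before to 50 after the gene start: Cdk1 at chr20:19265043-19265342 (plus strand), Cdc20 at chr5:137255750-137256049 (minus strand) and Spc25 at chr3:74396669-74396968 (minus strand).
Cdk1: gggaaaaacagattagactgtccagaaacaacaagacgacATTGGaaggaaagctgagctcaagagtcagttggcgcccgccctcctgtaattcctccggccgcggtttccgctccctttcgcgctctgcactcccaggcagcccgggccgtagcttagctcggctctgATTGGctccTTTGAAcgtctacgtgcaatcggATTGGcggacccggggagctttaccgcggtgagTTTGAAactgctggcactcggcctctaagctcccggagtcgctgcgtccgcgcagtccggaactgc
Cdc20: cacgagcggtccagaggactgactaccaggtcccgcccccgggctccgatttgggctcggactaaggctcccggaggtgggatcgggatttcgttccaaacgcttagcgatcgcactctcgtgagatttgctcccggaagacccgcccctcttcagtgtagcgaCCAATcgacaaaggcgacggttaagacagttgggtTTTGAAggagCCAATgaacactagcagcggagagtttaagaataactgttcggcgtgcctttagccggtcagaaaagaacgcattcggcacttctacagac
Spc25: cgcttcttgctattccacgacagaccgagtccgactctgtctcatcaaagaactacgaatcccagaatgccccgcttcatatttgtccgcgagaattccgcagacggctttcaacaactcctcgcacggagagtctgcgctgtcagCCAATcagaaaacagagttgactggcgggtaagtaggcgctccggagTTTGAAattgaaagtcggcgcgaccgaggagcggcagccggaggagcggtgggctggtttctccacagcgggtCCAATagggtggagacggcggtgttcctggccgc
Cdk1 holds 3 CCAAT boxes and 2 CHR elements, Cdc20 and Spc25 2 and 1 each. The CHR letters were in 10 of 18 promoters matched for this list (55.6%), in 0 of 15 for the class II list and in 18.3% of all promoters. CCAAT was in 13 of the 18 (72.2%). The E2F motif GGCGGGAA, read on both strands, was in 1 of the 18, against 1.91% of all promoters, and in 0 of the 15. Each motif was counted by itself, whether or not it overlapped another.

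Tyms, thymidylate synthase, had log2 intensities of 11.30 and 11.45 in IUGR pools, against 10.98 and 10.93 in control pools (0.42 ± 0.09, adjusted p = 0.371). Dctd, the deaminase that makes its substrate, is no member of the list and was among the genes with the smallest p, with 12.10 and 11.99 in IUGR pools, against 11.29 and 11.53 in control pools (0.64 ± 0.12, adjusted p = 0.343). Spc25, a kinetochore protein, had 12.57 and 12.54 in IUGR pools, against 12.04 and 12.20 in control pools (0.44 ± 0.09, adjusted p = 0.402). In these genes both IUGR pools were above both control pools. Its partner in the Ndc80 complex, Nuf2, had 12.33 and 12.27 in IUGR pools, against 11.86 and 12.09 in control pools (0.33 ± 0.13, adjusted p = 0.589).

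Mitotic kinases and cyclins were among the members called higher. Cdk1, the kinase that starts mitosis, had 11.72 and 11.59 in IUGR pools, against 11.24 and 11.48 in control pools (0.29 ± 0.11, adjusted p = 0.571). Its cyclin Ccnb1 had 10.98 and 11.14 in IUGR pools, against 10.79 and 10.72 in control pools (0.30 ± 0.09, adjusted p = 0.482). Cdc20, which activates the ligase that ends mitosis, had 10.02 and 9.95 in IUGR pools, against 9.64 and 9.78 in control pools (0.28 ± 0.10, adjusted p = 0.571). For Cdk1 the gap between the nearest pools was narrower than the distance between the control pools. Pbk, Hmmr, Aurkb and Ccnb2 were also called higher, by 0.45 ± 0.13, 0.32 ± 0.09, 0.31 ± 0.12 and 0.19 ± 0.08. In IUGR replicate 1 they stood 0.32, 0.23, 0.14 and 0.18 above the control mean. The values in IUGR replicate 2 were 0.58, 0.41, 0.47 and 0.21.

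Of 24 measured cell cycle genes, 22 had a positive difference, 10 were called higher and 0 lower, with a median of 0.20. Among all named genes, 44.9% had a positive difference, 3.21% were called higher and 5.04% lower. The medians were 0.16 in IUGR replicate 1 and 0.23 in IUGR replicate 2. When IUGR replicate 2 was left out, 3 were called higher and 1 lower. The exceptions in direction were Mcm7, of the replication helicase, with -0.24 ± 0.11 (adjusted p = 0.638), and the G1 cyclin Ccnd1, with -0.13 ± 0.16 (adjusted p = 0.899). The inhibitor Cdkn1a differed by 0.02 ± 0.10. At day 4 the list's median was 0.07, and 1 of the 24 was called in the test of the difference between days, where 7.38% of all features were.

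**Figure D4:**
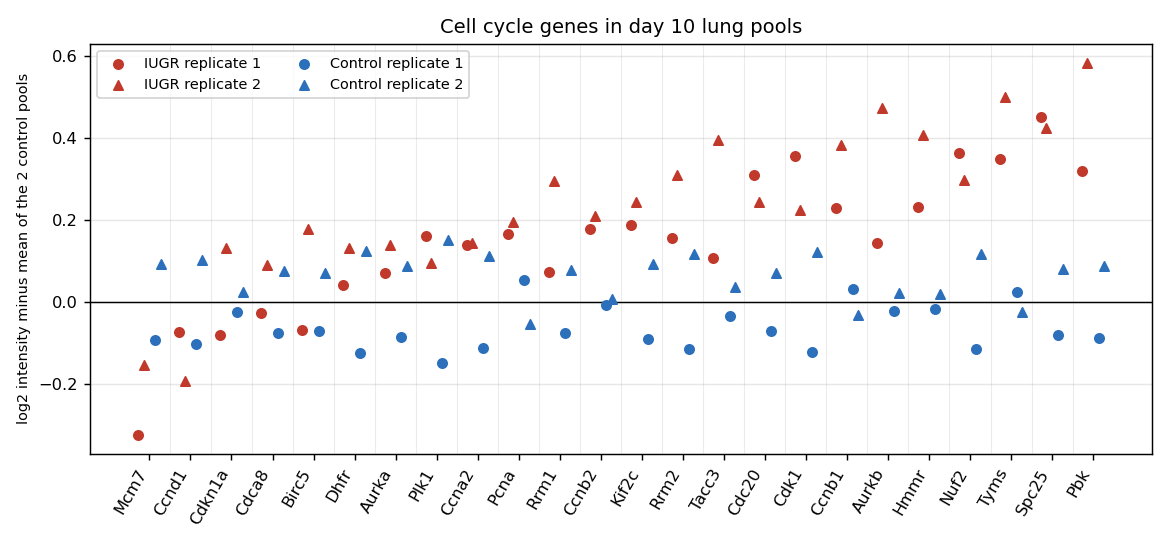
Log2 intensity of each of 24 cell cycle genes minus the mean of both control pools (vertical axis), with IUGR replicates in red left of control replicates in blue, sorted by their mean difference. From Ccna2 to the right, with the exception of Rrm1, both IUGR pools lie above both control pools.

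Among 16 genes of alveolar type 1 cells, 6 were called lower in IUGR lungs, where 5.04% of all named genes were. Ager, a membrane receptor abundant in type 1 cells, had 12.12 and 12.09 in IUGR pools, against 12.51 and 12.50 in control pools (-0.40 ± 0.09, adjusted p = 0.436). The water channel Aqp5 had 9.13 and 9.04 in IUGR pools, against 9.37 and 9.33 in control pools (-0.27 ± 0.08, adjusted p = 0.482). Clic5, of the ezrin scaffold, had 12.83 and 12.71 in IUGR pools, against 13.21 and 13.17 in control pools (-0.42 ± 0.15, adjusted p = 0.564). The groups did not overlap in any of the 3 genes. The tight junction protein Cldn18 differed by -0.27 ± 0.10 (adjusted p = 0.571) and the homeobox factor Hopx by -0.21 ± 0.10 (adjusted p = 0.669). Podoplanin (Pdpn), another type 1 marker, had 15.03 and 14.95 in IUGR pools, against 14.96 and 15.04 in control pools, with a difference of -0.01 ± 0.08. Caveolin 1 (Cav1), shared with endothelium, differed by 0.06 ± 0.09.

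Of the 16 type 1 genes measured, 14 had a negative difference and 0 were called higher, and 9 were lower in both IUGR pools without overlap, against 25.9% of all named genes. The median was -0.19. With IUGR replicate 1 alone, 2 were called lower, and the medians were -0.15 in IUGR replicate 1 and -0.22 in IUGR replicate 2. At day 4 the median was 0.02, and in the test of the difference between days 6 of the 16 were called lower, where 3.53% of all features were.

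Surfactant and type 2 genes were mixed, where 3.21% of all named genes were called higher and 5.04% lower. Sftpb, the surfactant protein needed for film formation, had 12.54 and 12.39 in IUGR pools, against 12.72 and 12.77 in control pools (-0.28 ± 0.10, adjusted p = 0.542). Napsa, a protease that processes it, had 11.62 and 11.48 in IUGR pools, against 11.96 and 11.94 in control pools (-0.40 ± 0.08, adjusted p = 0.371). By contrast, Sftpc differed by 0.01 ± 0.08, Sftpa1 by 0.11 ± 0.09 and Sftpd by 0.02 ± 0.27. Of 18 measured genes, 3 were called lower and 1 higher, with a median of -0.03. Left without IUGR replicate 2, the fit called 1 lower and 0 higher. The third lower gene was lysozyme (Lyz2), shared with macrophages, at -0.25 ± 0.08 (adjusted p = 0.519).

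Among 31 endothelial genes, 23 had a negative difference. Cldn5, the endothelial tight junction claudin, had 11.11 and 11.15 in IUGR pools, against 11.49 and 11.42 in control pools (-0.33 ± 0.09, adjusted p = 0.449). The endothelial transcription factor Sox18 had 8.68 and 8.67 in IUGR pools, against 9.09 and 9.06 in control pools (-0.40 ± 0.12, adjusted p = 0.475). The junction protein Pecam1 had 12.30 and 12.10 in IUGR pools, against 12.52 and 12.48 in control pools (-0.30 ± 0.09, adjusted p = 0.493). Both IUGR pools were below both control pools in each. Endothelin 1 (Edn1), a constrictor made by endothelium, was the member called higher, with 10.63 and 10.35 in IUGR pools, against 10.15 and 10.08 in control pools (0.37 ± 0.12, adjusted p = 0.49). The growth factor Vegfa differed by -0.19 ± 0.10 (adjusted p = 0.696) and its receptor Kdr by -0.18 ± 0.09 (adjusted p = 0.655).

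Of 31 measured endothelial and VEGF-angiopoietin genes, 5 were called lower and 1 higher, with a median of -0.12, and 17 were lower in both IUGR pools without overlap. Of all named genes, 5.04% were called lower and 25.9% were lower without overlap. In the fit without IUGR replicate 2, 3 were called lower and 1 higher. Epas1, a hypoxia factor of endothelium, had 12.10 and 12.26 in IUGR pools, against 12.52 and 12.48 in control pools (-0.32 ± 0.09, adjusted p = 0.449). It was the 1 gene called among 15 hypoxia genes, whose median was -0.01, and with IUGR replicate 1 alone 3 of these were called lower.

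Of 10 measured elastic fibre genes, 3 were called lower and 0 higher, against 5.04% and 3.21% of all named genes. The median was -0.13, and 8 had a negative difference. Loxl1, which crosslinks elastin, had 11.06 and 11.08 in IUGR pools, against 11.30 and 11.29 in control pools (-0.22 ± 0.07, adjusted p = 0.523). Elastin itself (Eln) had 11.29 and 11.27 in IUGR pools, against 11.41 and 11.48 in control pools (-0.17 ± 0.08, adjusted p = 0.658). Fibrillin 1 (Fbn1), the microfibril scaffold, differed by 0.02 ± 0.09 and fibulin 5 (Fbln5), which binds elastin to cells, by -0.12 ± 0.08. With IUGR replicate 1 alone 1 of the 10 was called lower.

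Other matrix genes went both ways, where 3.21% of all named genes were called higher and 5.04% lower. Has2, the main synthase of hyaluronan, had 10.70 and 10.73 in IUGR pools, against 10.17 and 10.27 in control pools (0.50 ± 0.10, adjusted p = 0.345). Fibronectin (Fn1) had 13.63 and 13.51 in IUGR pools, against 13.88 and 13.97 in control pools (-0.36 ± 0.10, adjusted p = 0.449). The matrix proteoglycan Prelp had 12.09 and 12.16 in IUGR pools, against 12.47 and 12.51 in control pools (-0.36 ± 0.09, adjusted p = 0.441). These 3 genes did not overlap between the groups. Of 18 collagen and proteoglycan genes 4 were called higher and 3 lower, with a median of 0.05, and with IUGR replicate 1 alone 2 higher and 3 lower. The gelatinase Mmp2 had 12.92 and 12.95 in IUGR pools, against 13.24 and 13.23 in control pools (-0.30 ± 0.09, adjusted p = 0.506), and 2 of 21 metalloproteinase and inhibitor genes were called lower, as many as with IUGR replicate 1 alone. Of 15 myofibroblast, smooth muscle and PDGF genes 1 was called higher, and with IUGR replicate 1 alone 1 higher and 1 lower. With both pools it was the pericyte regulator Rgs5, with 13.71 and 14.04 in IUGR pools, against 13.48 and 13.36 in control pools (0.46 ± 0.12, adjusted p = 0.449), while smooth muscle actin (Acta2) differed by -0.02 ± 0.10.

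Cartilage genes also stood out in single members, where 3.21% of all named genes were called higher. Type II collagen (Col2a1) had 10.74 and 10.12 in IUGR pools, against 8.05 and 9.58 in control pools (1.61 ± 0.51, adjusted p = 0.498). The control pools differed by more than the gap to the IUGR pools. Its matrix partner Hapln1 differed by 0.35 ± 0.14 (adjusted p = 0.592), aggrecan (Acan) by -0.01 ± 0.12, and 2 of 7 cartilage genes were called higher, or 1 with IUGR replicate 1 alone.

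Complement component C6, a part of the membrane attack complex, was the named gene with the largest negative difference. It had 11.16 and 10.74 in IUGR pools, against 12.27 and 12.65 in control pools (-1.51 ± 0.24, adjusted p = 0.303), an intensity 0.351 times that of controls. At day 4 it had 10.29 and 10.02 in IUGR pools, against 11.15 and 11.78 in control pools (-1.31 ± 0.24). Of 21 measured complement genes 2 were called lower at day 10 and 0 higher, with a median of 0.00 to 2 decimals, and the counts were the same with IUGR replicate 1 alone. The other was Cd55, which shields cells from complement, at -0.25 ± 0.08 (adjusted p = 0.519). Shares called over all named genes were 5.04% lower and 3.21% higher.

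Among plasma protein genes, albumin (Alb) had 8.64 and 8.67 in IUGR pools, against 8.17 and 8.14 in control pools (0.50 ± 0.07, adjusted p = 0.303). The thyroid hormone carrier Ttr had 7.64 and 7.77 in IUGR pools, against 7.23 and 7.19 in control pools (0.50 ± 0.12, adjusted p = 0.441). Saa4, a serum amyloid A protein, had 9.22 and 9.21 in IUGR pools, against 9.84 and 9.79 in control pools (-0.60 ± 0.08, adjusted p = 0.303). Apoe, a lipid carrier made by macrophages and liver, had 10.85 and 10.60 in IUGR pools, against 11.16 and 11.23 in control pools (-0.47 ± 0.10, adjusted p = 0.402). Of 29 measured genes 4 were called higher and 3 lower, and these counts were the same with IUGR replicate 1 alone. In Alb, Ttr, Saa4 and Apoe the groups did not overlap. Shares called over all named genes were 3.21% higher and 5.04% lower.

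The smallest p of a named gene at day 10 belonged to Prss12, a serine protease known from nerve cells. It had 11.26 and 11.09 in IUGR pools, against 10.28 and 10.46 in control pools (0.80 ± 0.10, adjusted p = 0.303). Among the other genes with the smallest p were Plet1, a surface protein of epithelial progenitors (0.50 ± 0.10), Cthrc1, a secreted matrix protein (0.61 ± 0.13), Ak1, an adenylate kinase (0.69 ± 0.15), Anxa3, an annexin (0.41 ± 0.09) and Cntn3, a contactin (0.68 ± 0.14). On the lower side were Slc6a20a, an imino acid transporter (-0.57 ± 0.09), Tmem176b, a membrane protein of dendritic cells and macrophages (-0.46 ± 0.08) and Ciao1, of iron-sulfur cluster assembly (-0.50 ± 0.09). None of these overlapped between the groups.

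Genes with the widest gap between the nearest pools, outside the heart, fat and muscle lists, included several that are foreign to lung. Ctrb1, a pancreatic chymotrypsinogen, had 8.60 and 8.83 in IUGR pools, against 7.54 and 7.27 in control pools (1.31 ± 0.31, adjusted p = 0.441). Ibsp, a bone matrix protein, had 9.80 and 9.23 in IUGR pools, against 8.62 and 8.50 in control pools (0.96 ± 0.23, adjusted p = 0.441). Eqtn, known from sperm, differed by 0.82 ± 0.21, Grifin, known from the lens, by 1.14 ± 0.36 and Pdia5, a protein disulfide isomerase, by 0.59 ± 0.13. Grifin had 8.58 and 9.49 in IUGR pools, against 7.94 and 7.86 in control pools, so IUGR replicate 2 set most of its difference. On the lower side, Rnase3, a secretory ribonuclease, had 10.96 and 10.08 in IUGR pools, against 12.17 and 11.54 in control pools (-1.34 ± 0.32, adjusted p = 0.441). Myostatin (Mstn), which limits muscle growth, had 7.21 and 7.18 in IUGR pools, against 8.62 and 7.80 in control pools (-1.01 ± 0.23, adjusted p = 0.433). In Rnase3 the pools of each group, and in Mstn the control pools, lay farther apart than the gap between the groups. The alpha globin gene Hba-a3 differed by -0.90 ± 0.21 and Serpinb6b by -1.02 ± 0.34. Other globin features did not share this: Hba-a2 differed by -0.01 ± 0.08 and Hbb by 0.08 ± 0.08, and 0 of 12 red cell genes were called. Globin copies are near-identical, so which copy a feature reads is uncertain.

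Genes of other tissues and cell types were called in small numbers, where 3.21% of all named genes were called higher and 5.04% lower. Of 17 skeletal muscle and 5 thymus genes 0 were called by limma without adjustment. Of 17 conducting airway genes 2 were called higher, the antimicrobial lectin Reg3g, with 7.92 and 7.90 in IUGR pools, against 7.40 and 7.30 in control pools (0.56 ± 0.12, adjusted p = 0.415), and the basal cell keratin Krt5 (0.34 ± 0.13, adjusted p = 0.571). Of 8 mast cell genes 1 was called higher, the protease Mcpt1, with 9.99 and 10.42 in IUGR pools, against 9.61 and 9.86 in control pools (0.47 ± 0.16, adjusted p = 0.539). In the fit without IUGR replicate 2, 1 airway, 0 mast cell and 0 skeletal muscle genes were called higher by limma without adjustment, and 1 thymus gene. The median of the airway list was -0.01 in IUGR replicate 1 and 0.29 in IUGR replicate 2.

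Growth factor pathways of septation held small numbers of called genes, where 3.21% of all named genes were called higher and 5.04% lower. Of 15 genes of the insulin-like growth factor axis 2 were called lower: the receptor Igf1r, with 10.10 and 10.12 in IUGR pools, against 10.26 and 10.41 in control pools (-0.22 ± 0.09, adjusted p = 0.615), and the binding protein Igfbp4 (-0.25 ± 0.10, adjusted p = 0.592). Igf1 was read by 2 features of similar intensity, of which 1 was not called (-0.08) and 1 was called lower (-0.28). Igf2, an imprinted fetal growth factor, had 8.60 and 9.76 in IUGR pools, against 8.48 and 8.50 in control pools (0.69 ± 0.41, adjusted p = 0.728), so that IUGR replicate 2 alone set its difference. Of 28 TGF-beta and BMP genes 1 was called higher, the activin inhibitor Fst (0.45 ± 0.12, adjusted p = 0.441), and 3 lower, among them Bmp6 (-0.43 ± 0.14, adjusted p = 0.523). Of 16 FGF genes 1 was called higher and of 20 Wnt genes 0 were called by limma without adjustment. Fgf10, which drives branching, differed by 0.12 ± 0.10 and Fgf7 by -0.25 ± 0.15. Of 18 retinoid genes 1 was called lower, the retinoic acid hydroxylase Cyp26a1 (-0.31 ± 0.11, adjusted p = 0.569). The glucocorticoid receptor Nr3c1 differed by -0.18 ± 0.11 and 1 of 16 glucocorticoid response genes was called, Pdk4, which had 10.10 and 11.11 in IUGR pools, against 10.06 and 9.77 in control pools (0.69 ± 0.28, adjusted p = 0.604). When IUGR replicate 2 was left out the counts were 1 lower for IGF, 2 higher and 1 lower for TGF-beta and BMP, 1 higher for FGF, 2 lower for Wnt, 2 lower for retinoid genes and 0 for the glucocorticoid response, by limma without adjustment.

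Of 31 antioxidant genes 5 were called lower and 0 higher, with a median of -0.06. Among all named genes, 5.04% were called lower and 3.21% higher. The peroxidase Gpx2 had 11.00 and 11.42 in IUGR pools, against 11.67 and 11.67 in control pools (-0.46 ± 0.15, adjusted p = 0.516). Keap1, which holds the antioxidant factor Nrf2 in check, had 9.19 and 9.28 in IUGR pools, against 9.75 and 9.53 in control pools (-0.41 ± 0.12, adjusted p = 0.469). With IUGR replicate 1 alone 4 were called lower. Of 47 cytosolic ribosomal protein genes 5 were called lower and 0 higher, with a median of -0.01 and the same counts with IUGR replicate 1 alone, led by Rpl38 (-0.46 ± 0.13, adjusted p = 0.453).

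The day 4 arrays (2 IUGR and 2 control pools) were used to ask which differences were particular to day 10. The test of the day 10 difference minus the day 4 difference called 0 features after adjustment (smallest adjusted p 0.296) and 1933 (7.38%) at an unadjusted p under 0.05. It uses the same day 10 arrays as the comparison above, so both tests share their spread. At day 4 itself limma called 0 features after adjustment and 2514 (9.59%) at an unadjusted p under 0.05. IUGR replicate 2 of day 4 was likewise high in fat and heart genes. Ucp1 had 7.91 and 12.02 in IUGR pools at day 4, against 8.79 and 8.0 in control pools. Myh6 had 11.13 and 13.27 in IUGR pools at day 4, against 11.98 and 11.19 in control pools.

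No single gene can thus be called particular to day 10, and the values of both days are given side by side. RT1-Bb differed by -0.85 ± 0.12 at day 10 and 0.06 ± 0.12 at day 4 (difference between days -0.91 ± 0.17, adjusted p = 0.361). RT1-Da differed by -0.62 ± 0.09 at day 10 and -0.01 ± 0.09 at day 4 (adjusted p = 0.361 for the difference between days). Rfxank differed by -0.56 ± 0.10 at day 10 and 0.02 at day 4 (adjusted p = 0.436). RT1-Db1, by contrast, was lower at both days, by -0.78 ± 0.15 at day 10 and -0.38 ± 0.15 at day 4 (adjusted p = 0.73). In all, 5 of the 17 class II genes and 9 of the 34 myeloid and leukocyte genes were called lower in this test, where 3.53% of all features were. Lst1, a leukocyte gene of the MHC region, had opposite directions: -0.40 ± 0.09 at day 10 and 0.47 ± 0.09 at day 4 (adjusted p = 0.3).

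The interferon list of 28 genes had a median of 0.01 at day 10 and -0.22 at day 4, and 8 were called higher in the test of the difference between days, where 3.84% of all features were. Tnfsf10, the death ligand TRAIL, differed by 0.12 ± 0.11 at day 10 and -0.85 ± 0.11 at day 4 (adjusted p = 0.317). The 17 class I and peptide loading genes had a median of -0.03 at day 10 and -0.17 at day 4, with 5 called higher and 0 lower between days, but members differed. RT1-A2 differed by -0.40 ± 0.10 at day 10 and -0.16 ± 0.10 at day 4, and Tap1 by -0.22 ± 0.10 at day 10 and -0.12 ± 0.10 at day 4. The class I chain RT1-A1 had 10.52 and 10.54 in IUGR pools at day 10, against 10.29 and 10.23 in control pools. At day 4 it had 8.87 and 8.50 in IUGR pools, against 10.29 and 9.68 in control pools (adjusted p = 0.361 for the difference between days).

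Of the named genes, albumin gave the smallest p in the test between days. Its difference was 0.50 ± 0.07 at day 10 and -0.37 ± 0.07 at day 4 (difference between days 0.87, adjusted p = 0.296). Plet1 differed by 0.50 ± 0.10 at day 10 and -0.45 ± 0.10 at day 4 (adjusted p = 0.317), and the acute phase protein Orm1 by 0.39 ± 0.11 at day 10 and -0.53 ± 0.11 at day 4 (adjusted p = 0.361). Each of these was above control at day 10 and below control at day 4 in both pools. Elastin differed by -0.17 ± 0.08 at day 10 and 0.25 ± 0.08 at day 4 (adjusted p = 0.504), and Hopx by -0.21 ± 0.10 at day 10 and 0.30 ± 0.10 at day 4 (adjusted p = 0.538). C6 had negative differences at both days (difference between days -0.20 ± 0.34, adjusted p = 0.935).

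**Figure D5:**
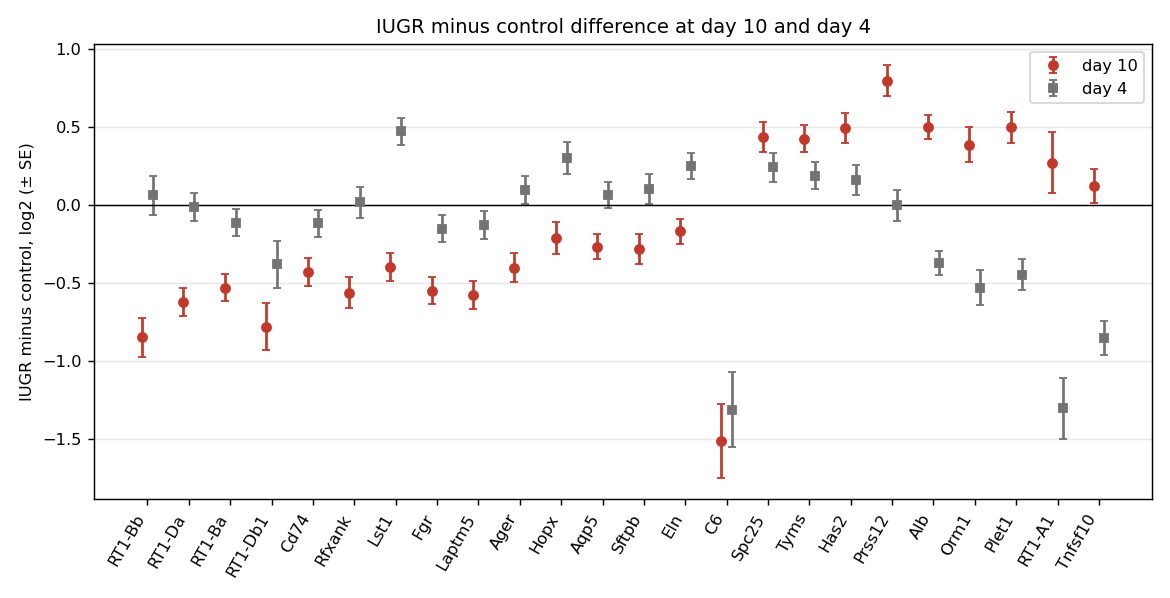
IUGR minus control difference on the log2 scale (vertical axis, points with SE bars from limma) at day 10 (circles) and day 4 (squares) for 24 named genes picked from the groups above. RT1-Bb differs by -0.85 at day 10 and 0.06 at day 4, C6 is low at both days, and Alb has opposite directions.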

How the data were processed

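Per the labels, total RNA of whole lungs was pooled, labelled with Cy3 by NimbleGen and read on one-colour arrays. Each deposited value is a linear intensity of 1 feature on 1 array; the submitters' processing notes name RMA, without a version, and no background flags come with the values. The deposited day 21 arrays did not line up with the others and were not used. Their correlation over features with the mean of the day 4 and 10 arrays was 0.43 on 3 arrays and 0.02 on the other. Each array of days 4 and 10 gave 0.986 to 0.996 with the mean of the rest. Lowest intensity was 5.65 to 6.02 on those 3 arrays and 148 on the other, against 113 to 122 at days 4 and 10. Intensities were taken to log2 with no further normalisation. Limma 3.58.1 (R 4.3.3; lmFit, contrasts.fit, eBayes) fitted the 8 arrays of days 4 and 10 with 1 mean per group, which left 4 residual degrees of freedom (prior 3.79). P-values were adjusted over all features by Benjamini-Hochberg, threshold 0.05. No batch is labelled. The number of arrays limits the precision. RefSeq accessions, without versions, matched 9731 features to 1 symbol in the GRCr8 gene table and left 16477 unnamed. A gene with several features took the one with the highest mean. Named genes were the 12 higher and 12 lower with the smallest p, the 8 higher and 8 lower with the widest gap between pools, up to 4 higher and 4 lower of each list (any member of the heart, brown fat, class II and cell cycle lists), a panel of lung genes, and the 6 higher and 6 lower with the smallest p between days. The genes, lists and rules were chosen with earlier results of these data known. Lists were described by counts and medians with no set test. Alternatives are in the closing section.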

Additional observations from a re-analysis of the deposited data

How the results depend on the processing

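The count of features past the adjusted threshold at day 10 was 0 under quantile normalisation, median centring, an added intensity of 50, trended robust eBayes, removal of the dimmest 30% of features, the day 10 arrays alone and the replicate block. Leaving out 1 array at a time gave 0 to 2, the 2 (Myh7 and an unnamed feature) without IUGR day 10 replicate 1. Counts at an unadjusted p under 0.05 ran from 1020 to 2921 under these omissions, against 2095 with all arrays, lowest without control day 10 replicate 1 (1020) and replicate 2 (1227). For the difference between days, omissions gave 0 to 152 adjusted calls (152 without IUGR day 4 replicate 1, 36 without its replicate 2, 1 without control day 4 replicate 1) and 1087 to 3766 unadjusted calls. Leaving out replicate 2 of IUGR at both days, chosen after seeing the data, gave 11 adjusted and 3190 unadjusted calls for that difference. The arms cut to 1 array were taken to vary like the other groups. Same-numbered pools shared no strong deviation (correlation of same-numbered deviations 0.062 at day 10 and -0.068 at day 4). With 2 pools a group, this cannot show whether the replicate numbers pair the pools. With the replicate block 0 features passed for either comparison, with 1880 and 1728 unadjusted calls. Median centring moved the share of positive differences to 49.2%, against 47.2%. Without IUGR day 10 replicate 2, 31 of 45 list medians kept their sign, and the respiratory chain median turned to -0.04. The cause of these shifts was not tested. No background flags were used, so dim genes are the least certain.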
